A study of Mus musculus with 12 samples.

Results

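Motile cilia genes are the 44 genes described here, named in a list of dynein arm, radial spoke, central pair and ciliary microtubule genes and found by symbol in a deposited table of 55679 genes. All 44 symbols were present in the table. The members were followed in the lung and heart of Adam19 WT and Adam19 KO mice, in 12 libraries of total RNA, 1 for each tissue of each mouse. The 3 WT and 3 KO mice were males of the 129S6/SvEvTac strain and 9 to 13 weeks old. In the KO, exons 6 and 7 of Adam19, which encodes a membrane-bound metalloprotease, were replaced in all cells by a red fluorescent protein (tdTomato) reading frame and a hygromycin resistance cassette. RNA came from lung or heart tissue, so every library mixed cell types of its organ. Lung and heart replicates of the same number came from the same mouse, whereas the numbers pair nothing between genotypes. The identifiers of WT and KO mice share no prefix, so a litter or cage that such a prefix may mark cannot be told apart from genotype.

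A motile cilium beats because dynein motors slide its outer microtubule doublets against each other. Outer dynein arms set the beat frequency and inner arms its shape, while radial spokes and the central pair of microtubules carry the signals that coordinate the motors. In the lung these cilia stand in a dense tuft on each multiciliated cell of the airway lining and move mucus towards the throat, and inherited loss of many of the genes below causes primary ciliary dyskinesia. Adult heart muscle carries no motile cilia. The transcription factor FOXJ1 and the RFX factors, which bind a sequence called the X-box, switch on most genes of the motile axoneme.

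The deposited gene values are on a log2 scale, close to the log2 of 1 + the estimated count with a constant added for each library, and all levels and differences below are on this scale unless stated otherwise. Libraries held 17674788 to 35862932 estimated counts. One noncoding RNA, Rn7s1, took 2.18 to 33.7% of the counts of a lung library, and 33.7, 29.6 and 2.18% in lung WT replicates 1, 2 and 3 against 10.4, 3.28 and 20.8% in lung KO replicates 1, 2 and 3. Adam19 itself stood at 9.12 to 9.41 in WT lungs and 3.21 to 4.44 in KO lungs, and at 9.17 to 10.27 in WT hearts and 6.01 to 6.67 in KO hearts. The 8 alveolar type 2 genes of a marker list were all higher in lung and the 10 cardiomyocyte genes were all higher in heart, in both genotypes.

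Promoter sequences are shown first because some of the members hold a motif that the list did not use. RefSeq promoter windows of GRCm38.p6, 300 bases from 250 before to 50 after a start site, matched 36 of the 44 members. Dnai1 and Dnai2 are listed there as Dnaic1 and Dnaic2, and the members not matched were Dnah3, Dnaaf1, Rsph1, Rsph4a, Cfap53, Cfap54, Cfap65 and Tppp3. The X-box was searched on both strands as the arm GTTNCC, then 1 to 4 bases of any kind, then the arm GNAAC. It was found in windows of 12 of the 36 members (33.3%), against 579 of 27025 genes of the same table (2.14%). The matches lay in Dnah9, Dnai1, Dnai2, Spag16, Spag17, Hydin, Tekt2, Tekt4, Cfap44, Cfap45, Dynlrb2 and Stk36. Among 43 further axoneme genes with a window, 9 held the motif (20.9%), against 2 of 28 genes of intraflagellar transport and the BBSome and 0 of 7 genes of cytoplasmic dynein. The forkhead letters GTAAACA, searched on both strands, were in 2 of the 36 members (5.56%) and in 4.05% of all genes. A match is a description of letters in a window and not a measured binding site.

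The short windows below hold the match of 6 members in capitals with 12 bases on each side, read 5′ to 3′ on the strand of the gene, and they are shown as examples from an outer arm motor, 2 intermediate chains, a central pair gene, an inner arm tether and a light chain. The search fixed most letters of both arms, so likeness there is no result. The Dnah9 match starts 82 bases before the start site (chr11:66168609-66168645, minus strand), that of Dnai1 19 before (chr4:41569763-41569799, plus strand), that of Dnai2 33 before (chr11:114727374-114727410, plus strand), that of Hydin 21 before (chr8:110266944-110266981, plus strand), that of Cfap44 27 before (chr16:44394760-44394797, plus strand) and that of Dynlrb2 51 before (chr8:116504952-116504988, plus strand), all in GRCm38.p6.
Dnah9: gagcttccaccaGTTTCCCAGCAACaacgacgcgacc
Dnai1: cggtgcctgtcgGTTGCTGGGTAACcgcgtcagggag
Dnai2: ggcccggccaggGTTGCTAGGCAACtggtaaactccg
Hydin: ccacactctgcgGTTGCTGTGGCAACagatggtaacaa
Cfap44: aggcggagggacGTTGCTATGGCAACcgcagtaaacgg
Dynlrb2: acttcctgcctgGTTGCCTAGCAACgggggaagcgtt

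The whole window of Dynlrb2, a light chain gene described below, shows where the match (capitals) lies relative to the start site, which follows base 250 (chr8:116504765-116505064, plus strand, GRCm38.p6).
Dynlrb2: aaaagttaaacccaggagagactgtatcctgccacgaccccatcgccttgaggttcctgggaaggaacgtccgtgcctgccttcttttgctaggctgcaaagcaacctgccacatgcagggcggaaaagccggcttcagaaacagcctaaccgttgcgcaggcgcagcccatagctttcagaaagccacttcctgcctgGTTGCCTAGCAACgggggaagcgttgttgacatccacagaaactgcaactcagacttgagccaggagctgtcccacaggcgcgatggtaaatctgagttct
With each heart library set to a floor of 3 estimated counts where it was lower, the 12 members with a match had a median lung minus heart difference of 4.83 in WT (range 0.89 to 6.39), and the 24 members with a window and no match had one of 4.96 (1.12 to 10.64). Without the floor the medians were 5.58 and 6.08.

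In WT mice the motile cilia genes were lung genes. Every one of the 44 members had all 3 lung libraries above all 3 heart libraries, where 41.7% of all 16636 genes tested did. The limma test with Benjamini-Hochberg adjustment put 39 of the 44 past all thresholds (adjusted p under 0.05, a fold of at least 1.5, and a group mean of at least 6), higher in lung, against 29.7% of all genes, and none lower. The median difference between lung and heart was 5.77 over the members and 0.30 over all genes tested. With hearts at the floor of 3 estimated counts, the members' median was 4.92. Fewer ciliated cells and less RNA per cell cannot be told apart in such bulk samples. All 44 members reached the filter, a gene value of at least 3.46, in every lung library. However, 23 reached it in no WT heart and passed through the lung libraries alone, so a difference was built in for these. Among members whose adjusted p for tissue is printed below, they include Dnah3, Dnah5, Dnah11, Dnaaf1, Cfap65, Tekt1, Tekt2, Cfap53 and Dynlrb2. The adjusted p-values of these members are therefore no separate support for a difference. The value of 3.46 is 10 estimated counts in a library whose added constant is 0, fewer where the constant is above 0 and more where it is below.

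The same held in KO mice. All 44 members had every KO lung library above every KO heart library, against 45.9% of all genes tested, and 41 were past the thresholds, higher in lung, against 30.9% of all genes. The median difference in KO was 5.89, and 5.57 with hearts at the floor. Here 19 members reached the filter in no KO heart, with a difference built in likewise.

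**Figure D1:**
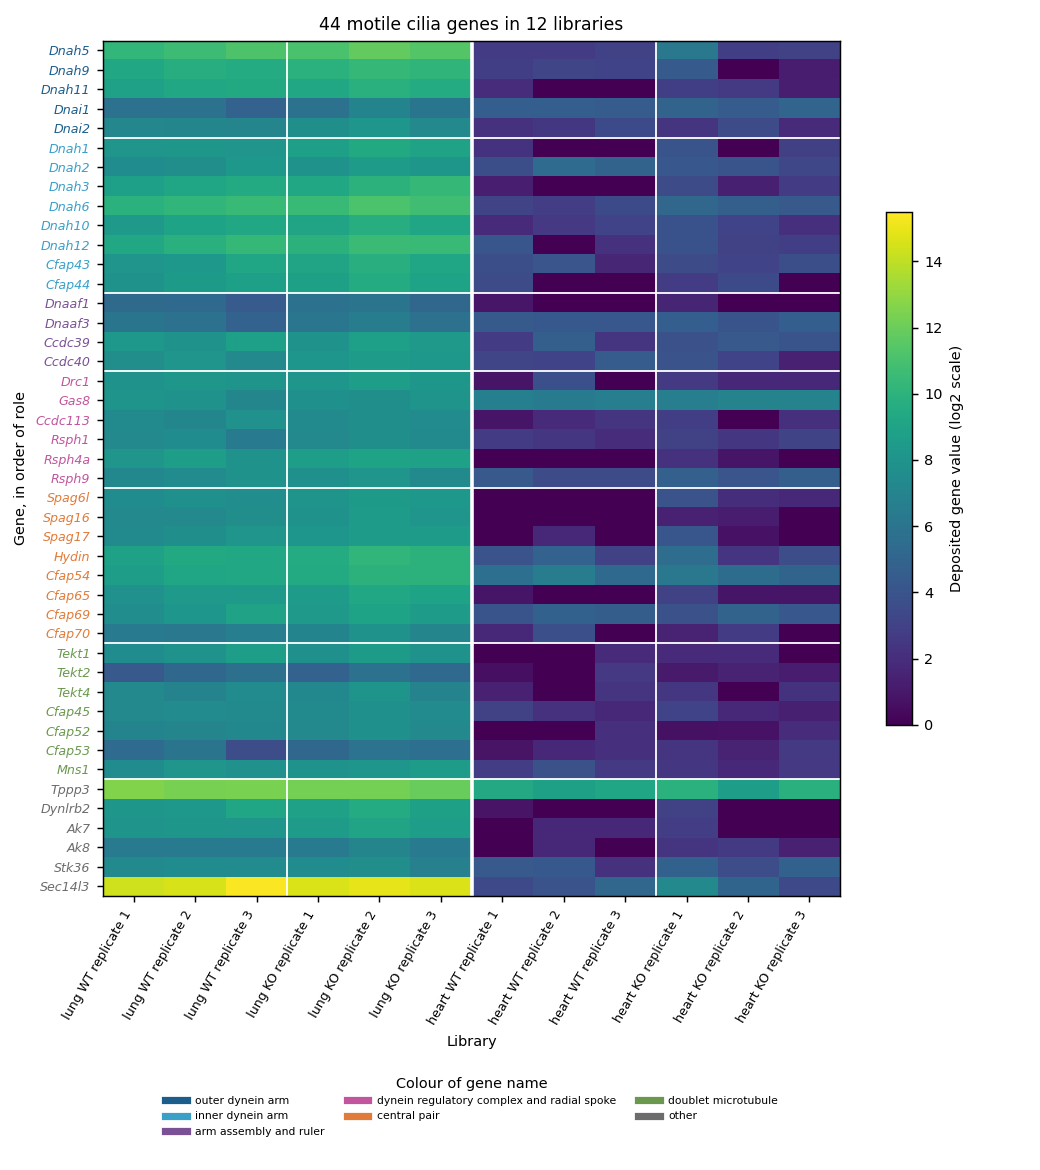
Heat map of the deposited values (log2 scale, colour) of the 44 members (rows, in order of role, with the name's colour giving the role) in the 12 libraries (columns). The lung columns run from 3.65 to 15.40, the heart columns of a genotype are darker than its lung columns for every gene, and heart KO replicate 1 is brighter than the other hearts for many genes.

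Outer dynein arms hold the motor heavy chains Dnah5, Dnah9 and Dnah11 and the intermediate chains Dnai1 and Dnai2. Dnah5, the outer arm motor whose human counterpart is often mutated in primary ciliary dyskinesia, stood at 10.28, 10.63 and 11.17 in WT lungs and at 2.67, 2.78 and 3.00 in WT hearts. Dnah11, the paralogue found in the lower stretch of airway cilia, stood at 8.89, 9.26 and 9.40 in lungs and at 1.97, 0.00 and 0.00 in hearts. The lung and heart values did not come near each other for either motor. The differences were 7.88 (SE 0.30, adjusted p = 4.14e-07) for Dnah5 and 8.52 (SE 0.56, adjusted p = 4.99e-06) for Dnah11. With hearts at the floor they were 7.87 and 6.66, so their order depended on how low heart values were treated.

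Dnai1, by contrast, had the smallest tissue difference of all members in WT mice. In KO mice Gas8 had the smallest, 1.03, while Dnai1 had 1.43 (SE 0.35, limma adjusted p = 0.00647) and passed the thresholds. The gene value of Dnai1 was 5.76, 5.81 and 4.88 in WT lungs and 4.63, 4.62 and 4.51 in WT hearts. The groups did not overlap, but the difference of 0.89 (SE 0.36) missed the threshold with an adjusted p of 0.0606. Over the alternative settings described at the end, it ran from −0.071 (quantile-normalised libraries) to 1.86. Its adjusted p by limma ran from 0.00141 to 0.884 over them. The transcript table gave a different picture of this gene (chr4:41569193-41638158, plus strand, GRCm39). The summed protein-coding transcripts of Dnai1 had 37.3, 59.8 and 47.5 estimated counts in WT lungs and 0, 0 and 1.1 in WT hearts. A transcript with a retained intron, 965 bases long, had 4.2, 5.5 and 3.4 in the same lungs and 15.1, 7.9 and 6.8 in the hearts. Over all 6 hearts the retained-intron transcript took 92.7% of the gene's estimated counts and protein-coding transcripts 7.28%, whereas protein-coding transcripts took 93.8% in the 6 lungs. No heart held more than 20.1 estimated counts of either kind, and the split of reads between overlapping transcripts is an estimate. The heart gene values of Dnai1 stand for 12.1 to 34.5 estimated counts, more than its summed transcripts in each heart.

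**Figure D2:**
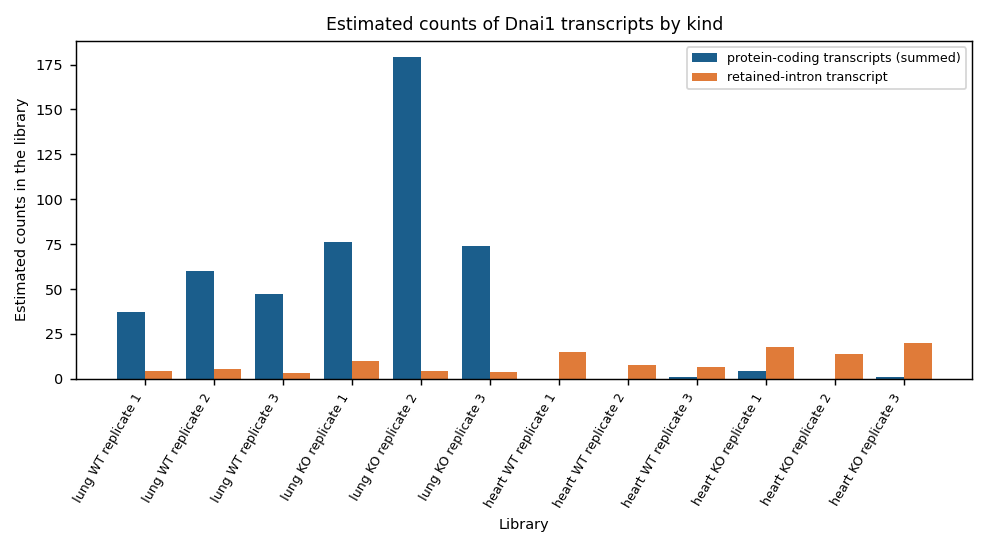
Estimated counts (vertical axis, not scaled for depth) of the protein-coding transcripts of Dnai1, summed, and of its retained-intron transcript in each of the 12 libraries. The protein-coding bars reach 37.3 to 179.3 in lungs and at most 4.2 in hearts, while the retained-intron bars are at 3.4 to 10 in lungs and 6.8 to 20.1 in hearts.

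Inner dynein arms hold Dnah1, Dnah2, Dnah3, Dnah6, Dnah10 and Dnah12, and Cfap43 and Cfap44 tether one of them to the doublet. All 8 were past the thresholds in WT, with differences from 3.11 (Dnah2) to 7.02 (Dnah6) when hearts were at the floor. Dnah3 stood at 8.72, 9.17 and 9.49 in WT lungs and at 1.32, 0.00 and 0.00 in WT hearts, a difference of 8.69 (SE 0.46, adjusted p = 1.73e-06), or 6.63 at the floor. Dnah12 stood at 9.26, 9.83 and 10.32 in lungs and at 4.13, 0.00 and 2.22 in hearts, a difference of 7.69 (SE 0.90, adjusted p = 0.000124), or 6.57 at the floor. Dnah12 spread in hearts from 0 to above the filter.

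Arm assembly factors and the rulers that set the axoneme's repeat are Dnaaf1, Dnaaf3, Ccdc39 and Ccdc40. Both rulers were past the thresholds, at differences of 5.04 (Ccdc39) and 4.07 (Ccdc40). Dnaaf1, which helps to preassemble arms in the cytoplasm, stood at 5.39, 5.27 and 4.47 in WT lungs and 0.95, 0.00 and 0.00 in WT hearts. Dnaaf3, a second preassembly factor, stood at 6.01, 5.83 and 4.89 in lungs and 4.40, 4.24 and 4.22 in hearts. The heart values of Dnaaf1 were at or near 0, whereas Dnaaf3 had similar values in all 3 hearts. The differences of 4.73 (Dnaaf1, adjusted p = 6.13e-05) and 1.29 (Dnaaf3, adjusted p = 0.0188) passed the adjusted p, and the group mean of at least 6 kept both out of the count. With quantile-normalised libraries Dnaaf3 had a difference of 0.31 (adjusted p = 0.546), and its adjusted p was 0.0747 without lung WT replicate 1 and 0.0705 without lung WT replicate 2.

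The dynein regulatory complex (Drc1, Gas8, Ccdc113) and the radial spokes (Rsph1, Rsph4a, Rsph9) were all past the thresholds, with differences from 1.12 to 5.70 when hearts were at the floor. Rsph4a, a radial spoke head protein, stood at 8.08, 8.61 and 7.89 in WT lungs and at 0.00 in all 3 WT hearts. Against a floor of 3 counts in each heart library it was at least 52.0-fold higher in lung. Gas8, a subunit of the regulatory complex, stood at 8.03, 7.88 and 7.12 in lungs and 6.69, 6.35 and 6.64 in hearts. It was the closest pair of tissues among the members past the thresholds, with a difference of 1.12 (SE 0.30, adjusted p = 0.0108), and it lost the call with quantile-normalised libraries (0.64, adjusted p = 0.116).

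Central pair genes (Spag6l, Spag16, Spag17, Hydin, Cfap54, Cfap65, Cfap69, Cfap70) were past the thresholds in 8 of 8 cases, with differences from 3.18 to 5.68 when hearts were at the floor. Spag6l, a central apparatus protein, stood at 7.53, 7.79 and 7.59 in WT lungs and at 0.00 in all 3 WT hearts, at least 35.3-fold higher in lung against the floor. Spag16 was likewise at 0.00 in all WT hearts, and at least 30.4-fold higher in lung. Cfap65 stood at 7.85, 8.37 and 8.31 in lungs and 0.86, 0.00 and 0.00 in hearts, a difference of 7.89 (SE 0.40, adjusted p = 1.41e-06), or 5.68 at the floor. Cfap54 and Cfap69 were above the filter in each WT heart, Cfap54 at 5.67, 6.58 and 5.27 and Cfap69 at 4.02, 4.79 and 4.57.

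Proteins along the doublet microtubules are the tektins Tekt1, Tekt2 and Tekt4, and Cfap45, Cfap52, Cfap53 and Mns1. Tekt1 stood at 7.54, 7.99 and 8.62 in WT lungs and at 0.00, 0.00 and 1.83 in WT hearts, a difference of 7.44 (SE 0.58, adjusted p = 1.25e-05), or 5.56 at the floor. Tekt2 stood at 4.31, 5.20 and 5.70 in lungs and 0.62, 0.00 and 2.57 in hearts. Cfap53 stood at 5.39, 5.96 and 3.65 in lungs and 0.80, 1.80 and 2.08 in hearts. Like Dnaaf1, these last 2 passed the adjusted p (0.00138 and 0.00212) and missed the group mean of 6, and the other 5 were past all thresholds.

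The remaining 6 members are Sec14l3, Tppp3, Dynlrb2, Ak7, Ak8 and Stk36. Sec14l3, a lipid-binding protein abundant in ciliated airway cells, had the highest lung value of the members, at 14.40, 14.58 and 15.40 in WT lungs (14.79 ± 0.53, SD, n = 3) and 3.39, 3.95 and 5.12 in WT hearts (4.16 ± 0.88, SD, n = 3). Its difference of 10.64 (SE 0.44, adjusted p = 5.87e-07) was the largest of the 44. Dynlrb2, a light chain, stood at 8.19, 8.28 and 9.10 in lungs and 0.85, 0.00 and 0.00 in hearts, a difference of 8.24 (SE 0.43, adjusted p = 1.56e-06), or 6.03 at the floor. Its relative Dynlrb1, which serves cytoplasmic dynein in all cells, stood at 9.3 to 9.8 in WT lungs and 10.1 to 10.2 in WT hearts. The pair thus parted by tissue, with Dynlrb2 near 0 in hearts where Dynlrb1 was slightly higher on this scale. In TPM, a unit explained below, Dynlrb1 was instead higher in WT lungs (177.0 ± 17.6) than in WT hearts (147.6 ± 14.3, SD, n = 3).

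Tppp3, a microtubule-bundling protein that other cells also make, stood at 12.58, 12.32 and 12.37 in WT lungs and 9.37, 8.83 and 9.20 in WT hearts. It was the only member with a heart value above 8, and its difference was 3.29 (SE 0.18, adjusted p = 2.03e-06). The 7 members at or above the filter value in all 6 hearts were Dnai1, Dnaaf3, Rsph9, Cfap54, Cfap69, Gas8 and Tppp3, and 16 members reached it in no heart library. Of the 7, all but Dnaaf3 and Rsph9 also had at least 10 estimated counts in every heart, as taken back from the gene value without its library constant. By summed transcripts, Dnai1 and Cfap69 had fewer than 10 in heart WT replicates 2 and 3.

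Per transcript length the members did not stand at one level in the lung. Levels per length were taken as TPM, a unit that scales each transcript's estimated counts by its length and the library's total, over protein-coding transcripts. Sec14l3 led at 1044 ± 222 TPM in WT lungs, Tppp3 followed at 567 ± 70.5 and Dynlrb2 at 88.0 ± 26.9 (SD, n = 3). These first 3 places were the only ones set apart, because each gene's 6 lung libraries lay above those of the next, whereas the 40 later pairs of neighbours overlapped. Sec14l3 and Tppp3 made up 49.2 and 26.7% of the members' summed TPM in WT lungs, and the median member was at 9.603 TPM. The lowest was Dnaaf1 at 1.71 ± 0.61 TPM, followed upwards by Dnah2 at 3.04 ± 0.42 TPM. Foxj1, the regulator of these genes, stood at 43.99 ± 5.23 TPM in WT lungs and 0.0311 ± 0.0320 in WT hearts.

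Among the long motors, Dnah5 led at 17.6 ± 4.56 TPM, above Dnah6 (14.3 ± 1.84), Dnah12 (12.7 ± 3.88), Dnah9 (10.6 ± 1.64) and Dnah3 (9.29 ± 1.86), and Dnah11, Dnah10, Dnah1 and Dnah2 were lower (6.90 to 3.04 TPM). Neighbours in this order overlapped. In WT hearts Tppp3 made up 75.1% of the members' summed TPM of 41.5, and the median member was at 0.0418 TPM. In 34 of the 44 members the same transcript led in lung and heart, but 5 of these have only 1 listed transcript and other heart leaders rest on few estimated counts over all 6 hearts, such as 3.5 for Cfap52 and 6.4 for Tekt1. The leading transcript was protein coding in 44 members in lung and 41 in heart. The 3 exceptions in heart were Dnai1, Ccdc40 and Spag16, and for Ccdc40 and Spag16 the hearts held only 17.7 and 1.8 estimated counts in all.

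**Figure D3:**
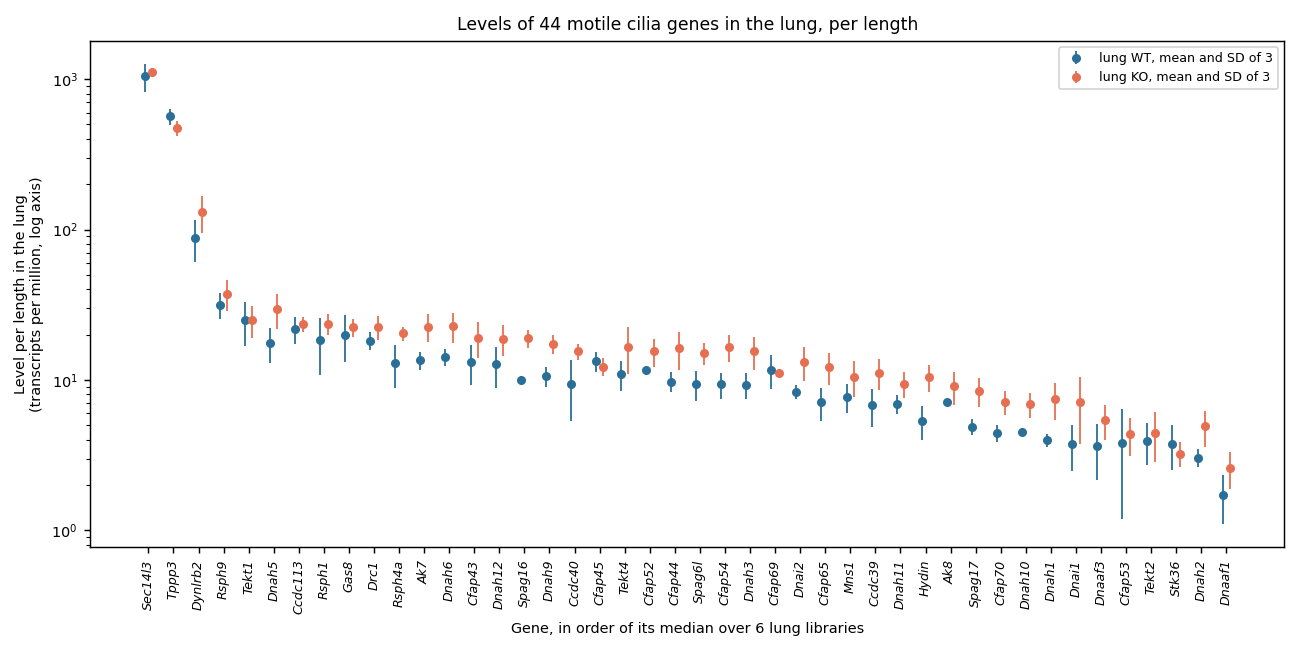
Level of each member in the lung in TPM (log axis), as mean and SD of 3 WT and of 3 KO libraries, in order of the median over the 6 lung libraries. Sec14l3, Tppp3 and Dynlrb2 stand apart at the left, most others lie between 1 and 40 TPM, and for most genes the KO point lies above the WT point.

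Genes of the wider cilium, from lists drawn up with results of these data already known, differed in their tissue pattern from list to list. Of 10 tested regulators of multiciliated cells, 7 were past the thresholds in WT, higher in lung, and none lower. Foxj1 stood at 9.4 to 9.6 in WT lungs and 0.0 to 1.9 in WT hearts. Of 56 tested further axoneme genes, 41 were higher in lung and 1, Rsph3b, was lower (−1.48, adjusted p = 0.00176). Of 32 genes of intraflagellar transport and the BBSome, which also serve the immotile primary cilium of most cells, 16 were higher and 2 lower, with a median of 0.62. Of 9 tested cytoplasmic dynein genes, 3 were higher and 3 lower, with a median of 0.40, near the 0.30 of all genes.

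No motile cilia gene passed the thresholds between genotypes in the lung, where 0.0665% of 16551 genes did. The smallest adjusted p of a member was 0.678 (Dnah1). Nevertheless the members leaned one way. Of the 44, 40 had a higher mean in KO lungs, against 51.6% of all genes tested. At an unadjusted p under 0.05 the limma test gave 18 members higher in KO and none lower, against 3.15% of all genes higher. The KO libraries all lay above the WT libraries in 16 members, against 6.41% of all genes. The median difference was 0.56 (about 1.5-fold) over the members and 0.01 over all genes, and members of 1 axoneme are not independent of each other.

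Much of this rested on which libraries entered. Lung KO replicate 2 was the highest of the 6 lungs in 34 members and lung WT replicate 1 the lowest in 28. Without lung KO replicate 2 the count at an unadjusted p under 0.05 was 7 of 44 and the median difference 0.39. Without lung WT replicate 1 the count was 11. When all 12 libraries shared 1 estimate of the spread, 1 member was left at an unadjusted p under 0.05, with differences unchanged. The mean was higher in KO for 36 to 42 members whichever lung library was left out.

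Central pair genes were the group with the highest median difference, 0.74, and 7 of the 8 were at an unadjusted p under 0.05 by limma. Roles also differed in transcript length. The main transcripts of these 8 genes are 2237 to 16057 bases long. Those of the doublet microtubule genes are 1542 to 2214 bases long, apart from Mns1 at 5250. The part of role apart from length was not tested. Hydin, a giant scaffold of the central pair, stood at 8.87, 9.39 and 9.25 in WT lungs and 9.55, 10.19 and 9.98 in KO lungs. Cfap54 stood at 8.67, 9.10 and 9.29 in WT lungs and 9.46, 9.95 and 9.94 in KO lungs. Spag16 stood at 7.30, 7.32 and 7.65 in WT lungs and 7.92, 8.48 and 8.08 in KO lungs. In each of the 3 the lowest KO lung was above the highest WT lung. The differences were 0.74 (SE 0.22) for Hydin, 0.76 (SE 0.22) for Cfap54 and 0.74 (SE 0.21) for Spag16, each with an adjusted p of 0.806.

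Spag17, needed for central pair assembly, stood at 7.41, 7.74 and 8.07 in WT lungs and 8.17, 8.55 and 8.57 in KO lungs. Cfap65 stood at 7.85, 8.37 and 8.31 in WT lungs and 8.54, 9.29 and 9.01 in KO lungs. Spag6l stood at 7.53, 7.79 and 7.59 in WT lungs and 8.0, 8.44 and 8.27 in KO lungs. These 3 groups too did not overlap, at differences of 0.69, 0.77 and 0.60. Cfap70 stood at 6.48, 6.21 and 6.60 in WT lungs and 7.01, 7.91 and 7.04 in KO lungs, a difference of 0.89 (SE 0.28), without overlap and with the widest KO spread of the group. Cfap69 alone overlapped, with means of 8.21 ± 0.66 in WT and 8.66 ± 0.31 in KO (SD, n = 3).

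The inner arm genes had 5 of 8 at an unadjusted p under 0.05 and a median difference of 0.65. Dnah1, an inner arm motor (chr14:30982332-31045915, minus strand, GRCm39), stood at 8.06, 8.22 and 8.09 in WT lungs and 8.72, 9.41 and 8.96 in KO lungs. Its difference of 0.91 (SE 0.20, adjusted p = 0.678) was the largest of the 44. Cfap43 stood at 8.11, 8.27 and 9.11 in WT lungs and 9.05, 9.76 and 9.17 in KO lungs, and Cfap44, its partner, at 7.96, 8.42 and 8.78 against 8.81, 9.53 and 9.01. Cfap43 overlapped by 1 WT lung, and Cfap44 did not overlap. Dnah3 stood at 8.72, 9.17 and 9.49 in WT lungs and 9.24, 9.99 and 10.30 in KO lungs, and Dnah6 at 9.91, 10.18 and 10.48 against 10.46, 11.11 and 10.74. Both motors overlapped by their highest WT library, at differences of 0.71 and 0.58.

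Of the outer arm genes 3 of 5 were at an unadjusted p under 0.05, and their median difference was also 0.65. Dnah9, the outer arm motor of the distal axoneme, stood at 9.20, 9.66 and 9.53 in WT lungs and 9.91, 10.32 and 10.12 in KO lungs. Dnah5 stood at 10.28, 10.63 and 11.17 in WT lungs and 11.05, 11.80 and 11.34 in KO lungs. Dnai2 stood at 7.16, 7.14 and 7.03 in WT lungs and 7.73, 8.13 and 7.27 in KO lungs. Dnah9 and Dnai2 did not overlap between genotypes and Dnah5 did, at differences of 0.65 (SE 0.18), 0.60 (SE 0.24) and 0.70 (SE 0.26). Dnai1 had a larger difference, 0.79, but a standard error of 0.39.

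Elsewhere single genes stood out. Among rulers and assembly factors only Ccdc40 was at an unadjusted p under 0.05, with 7.66, 8.11 and 7.31 in WT lungs and 8.13, 8.58 and 8.26 in KO lungs. Its partner ruler Ccdc39 had means of 8.30 and 8.32, a difference of 0.02. Among spokes and regulatory complex only Rsph4a reached it, with 8.08, 8.61 and 7.89 in WT lungs and 8.71, 8.97 and 8.86 in KO lungs. Ak7, an adenylate kinase of the axoneme, stood at 8.01, 8.19 and 8.08 in WT lungs and 8.54, 9.07 and 8.67 in KO lungs, a difference of 0.67 (SE 0.19) without overlap.

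The genes of the doublet microtubules gave 0 of 7 at an unadjusted p under 0.05, with a median difference of 0.25. Tekt1 had means of 8.05 ± 0.54 in WT and 8.03 ± 0.35 in KO (SD, n = 3). The members with a lower mean in KO lungs were Tppp3 (12.43 against 12.14), Stk36 (7.46 against 7.30), Sec14l3 (14.79 against 14.73) and Tekt1, and none of these reached an unadjusted p under 0.05. The 2 most abundant members were therefore not among those with a higher KO mean on this scale, although the mean TPM of Sec14l3 was 1044 in WT and 1114 in KO. In Tppp3 all KO lungs lay below all WT lungs.

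**Figure D4:**
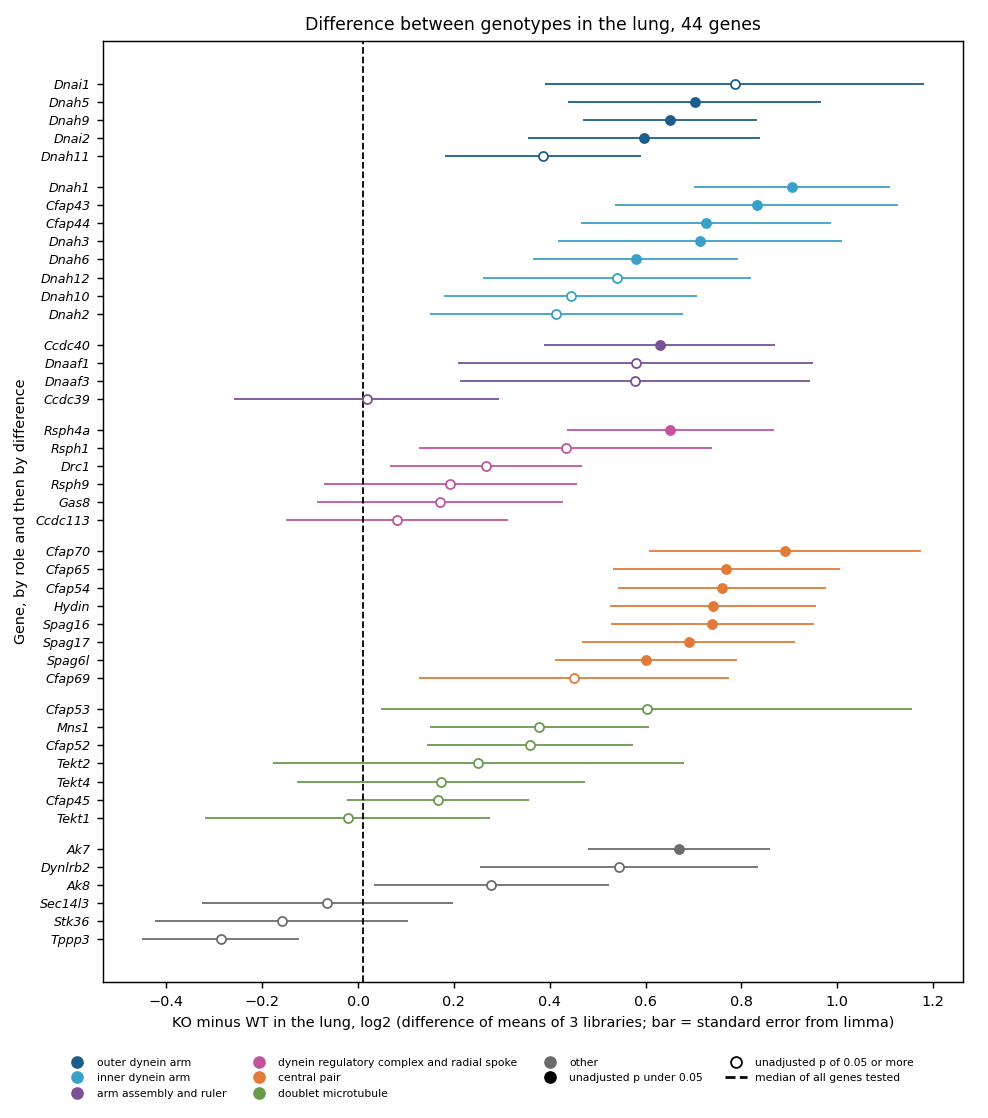
Difference between KO and WT means in the lung (log2, horizontal axis, bar = standard error from limma) for each member, in groups by role. Filled points have an unadjusted p under 0.05. The 8 central pair genes lie between 0.45 and 0.89, the doublet microtubule genes between −0.02 and 0.60, and the dashed line marks the 0.01 of all genes.

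Several measures moved with this lean. By length of the main transcript, the members' median difference was 0.19 for 11 members under 2000 bases, 0.59 for 14 from 2000 to under 5000, 0.69 for 9 from 5000 to under 10000 and 0.62 for 10 of 10000 or more. By limma 0, 6, 6 and 6 members of these bands were at an unadjusted p under 0.05. Among all other genes tested the medians in the same bands were −0.08, 0.01, 0.06 and 0.10. Airway secretory genes, which mark neighbours of ciliated cells in the airway lining, had a higher KO mean in 11 of 11 cases, 5 of them at an unadjusted p under 0.05, and their summed level was 17.64 to 18.35 in WT lungs and 18.38 to 18.66 in KO lungs. The differences of the 11 genes had a median of 0.87 and ran from 0.03 to 1.63. Muc5b, an airway mucin near the upper end of this range, stood at 9.2, 8.9 and 9.9 in WT lungs. In KO lungs Muc5b stood at 10.4, 11.5 and 10.9. Alveolar type 2 genes had a higher KO mean in 2 of 8 cases, with a summed level of 18.35 to 18.54 in WT and 17.98 to 18.23 in KO. Cardiomyocyte genes had a lower KO mean in 9 of 10 cases, with a summed level of 14.10 to 14.92 in WT lungs and 13.66 to 14.14 in KO lungs. Of 7 genes of an airway cartilage list 3 could be tested, all with a higher KO mean. The summed level of that list was 4.28 to 7.11 in WT lungs and 5.23 to 8.47 in KO lungs. It rested on few genes, with 3, 0 and 1 of the 7 at the filter value in lung WT replicates 1, 2 and 3. In lung KO replicates 1, 2 and 3 there were 2, 4 and 3. The part of transcript length, of the Rn7s1 share or of the amount of airway in a lung sample in the members' difference was not tested.

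The regulators and further axoneme genes leaned the same way in the lung without passing the threshold. Of 11 tested regulators, 10 had a higher KO mean and 2 an unadjusted p under 0.05, with a median difference of 0.28, below the members' 0.56. Foxj1 had a KO minus WT difference of 0.34 (SE 0.15, adjusted p = 0.829), without overlap of its libraries. Of 57 tested further axoneme genes, 54 had a higher KO mean and 19 an unadjusted p under 0.05, with a median difference of 0.50. Genes of intraflagellar transport and the BBSome had a higher KO mean in 24 of 32 cases, with a median of 0.14 and 0 of 32 at an unadjusted p under 0.05. Cytoplasmic dynein genes had a higher KO mean in 1 of 9 cases, with a median of −0.08 and 0 of 9 at an unadjusted p under 0.05. The 7 members on chromosome 11, where Adam19 lies (chr11:45946775-46038172, plus strand, GRCm39), had a median difference of 0.41, and the 37 on other chromosomes one of 0.58.

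In the heart only 14 of the 44 members reached the filter in 3 libraries, and none of these passed the thresholds between genotypes, where 0.0850% of 15303 genes did. A single member of the 14, Dnah6, was at an unadjusted p under 0.05 and had all KO hearts above all WT hearts, against 4.76 and 7.82% of all genes, and 10 of the 14 had a higher KO mean, against 55.0%. Dnah6, an inner arm motor, stood at 3.19, 2.81 and 3.51 in WT hearts and 5.11, 4.69 and 4.34 in KO hearts, a difference of 1.55 (SE 0.43, adjusted p = 0.483). Dnah2 stood at 3.74, 5.43 and 4.96 in WT hearts and 4.18, 4.05 and 3.28 in KO hearts. Rsph9 stood at 4.32, 3.62 and 3.57 in WT hearts and 4.76, 4.09 and 4.71 in KO hearts. Both overlapped between genotypes, at differences of −0.87 and 0.68 with adjusted p-values of 0.740.

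One heart library stood apart for the cilia genes. Heart KO replicate 1 was the highest heart in 23 of the 44 members and the only heart with no member at 0, whereas the other 5 hearts had 7 to 15 members at 0. Dnah5 stood at 6.18 in this library and at 2.67 to 3.04 in the other 5 hearts, and Sec14l3 at 7.28 against 3.39 to 5.12. Airway secretory genes stood out in the same library. Scgb1a1, the main club cell protein, was at 10.2 there against 4.5 to 8.3 in the other hearts, and Bpifa1, a secreted protein of the upper airways, at 9.0 against 0.0 to 2.4. The summed level of the 11 airway secretory genes was 11.55 there and 5.69 to 8.75 elsewhere, whereas that of the alveolar type 2 list was 10.77 within a range of 10.14 to 10.80 elsewhere. Foxj1 was at 4.0 in this library and 0.0 to 1.9 in the other hearts.

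The heart differences were therefore taken with and without it. Over all 44 members, tested or not, 32 had a higher KO mean with a median difference of 0.49, and 29 with a median of 0.22 without heart KO replicate 1. Depth differed too, at 33906290, 20381284 and 18392292 estimated counts in heart WT replicates 1, 2 and 3. Heart KO replicates 1, 2 and 3 held 31784742, 35862932 and 35529903. Members at 0 numbered 8, 15 and 14 in these WT hearts and 0, 7 and 9 in these KO hearts. The part of depth in the members' heart difference was not tested. Untested for want of the filter, Dnah3 and Spag6l also had all KO hearts above all WT hearts, and Mns1 had all KO hearts below all WT hearts. The shares of all genes given above cover tested genes only. Of the 7 genes of the cartilage list, the 3 that could be tested also had a higher KO mean in hearts. Each was at an unadjusted p under 0.05 by limma, with a median difference of 0.95 and none past the adjusted threshold. The list's summed level was 8.21 to 9.10 in WT hearts and 9.36 to 9.86 in KO hearts, against 4.28 to 7.11 in WT lungs. The list therefore does not single out airway in these samples. Among KO hearts the list was lowest in replicate 1. Heart KO replicates 1, 2 and 3 stood at 9.36, 9.86 and 9.71 for cartilage. For the 42 members without Sec14l3 and Tppp3 they stood at 9.46, 8.73 and 8.72. The part of cartilage in the members' heart difference was not tested. Without heart KO replicate 1 the count past the thresholds stayed at 0, and Dnah6 had a difference of 1.35 (unadjusted p = 0.0391 by limma, adjusted p = 0.994). The tissue contrast in KO kept its count of 41 members past the thresholds without this library. In the lung of the same mouse, lung KO replicate 1, the cilia genes were near the middle of the 6 lungs, with a median deviation of 0.00, and it was the highest or the lowest lung in none of the members.

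**Figure D5:**
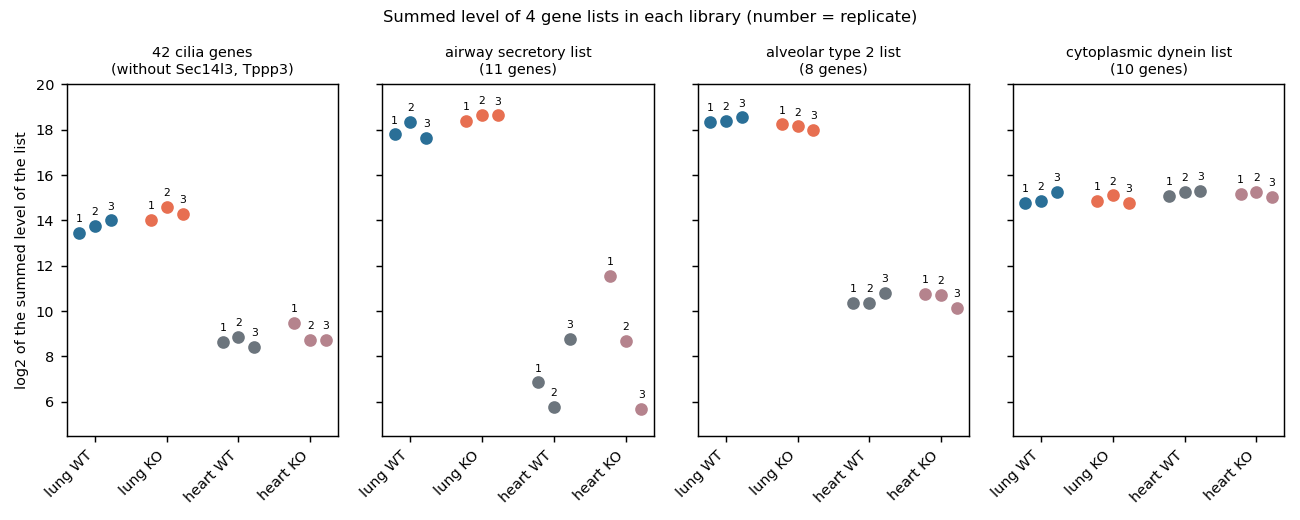
Log2 of the summed level of 42 members (all but Sec14l3 and Tppp3) and of 3 marker lists in each library, with the replicate number beside each point. Cilia genes are at 13.45 to 14.60 in lungs and 8.42 to 9.46 in hearts, heart KO replicate 1 is the top heart for cilia and airway secretory genes, and cytoplasmic dynein lies at 14.76 to 15.29 in every library.

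The genotype difference was also compared between tissues, as the KO minus WT difference in lung less that in heart. No member passed the thresholds, where 0.00566% of 17666 genes did. At an unadjusted p under 0.05 there were 4 members, 2 in each direction, which is 9.09% of the members against 7.88% of all genes. These were Dnah2 (1.29, SE 0.59), Mns1 (1.22, SE 0.52), Spag6l (−1.98, SE 0.68) and Dnah6 (−0.97, SE 0.38), with adjusted p-values of 0.548 to 0.634. Dnah2 and Mns1 had KO means above WT in the lung and below WT in the heart, at differences of 0.41 and −0.87 for Dnah2 and heart means of 3.09 in WT and 2.25 in KO for Mns1. Spag6l and Dnah6 had higher KO means in both tissues, by more in the heart. Spag6l and Mns1 did not reach the filter for a test within the heart, and Spag6l rested on heart values of 0.00 in all WT hearts and 3.97, 2.04 and 1.74 in KO hearts. The lean of the lung was thus not shown to differ from that of the heart for any member.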

How the data were processed

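The authors quantified reads with Salmon (1.10.0 in the study's methods) on GENCODE transcripts of mm39 and tested with limma; their labels also name cutadapt, STAR and limma 3.42.2. They deposited gene and transcript values on a log2 scale. Transcript values are log2(1 + estimated count). In single-transcript genes the deposited gene value adds a constant for each library (−0.63 to 0.80), in which at least 95.7% of such genes were within 0.01; the step for genes with several transcripts is not given in the sources used here, and for the members it differed from summed transcripts by a median of 0.107 in lung and up to 1.11. Files held no unmapped sample columns.

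The deposited log2 gene values were tested with limma 3.58.1 in R 4.3.3 (lmFit, eBayes with a variance trend) over all genes with a value of at least 3.46 in 3 libraries (10 estimated counts where the library's constant is 0), with Benjamini-Hochberg adjustment over all genes tested, after checking the code on simulated data. The fit of the tissue interaction took all 12 libraries. Members, roles and gene lists were chosen with earlier results of these data known. Values in every library are printed, in the WT tissue contrast, for the 10 members past the thresholds with the largest differences (before any floor), those with a heart mean of at least 6 and those not past the thresholds, and in each genotype contrast for members with an unadjusted p under 0.05, or the 3 smallest. Cfap54, Cfap69 and Spag16 were added where a sentence turned on them, and Muc5b as a single gene of the airway secretory list. Levels per length used transcript lengths of GENCODE vM39 on the same assembly, GRCm39. Lung and heart of a mouse are paired by the mouse identifier in their titles; their deviations from the group means over 17666 genes correlated at −0.07 to 0.14. No libraries of a group were identical. P-values measure the spread between 3 mice a group. Python 3.11.15, pandas 2.3.3, numpy 2.4.6 and matplotlib 3.10.9 were used.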

Additional observations from a re-analysis of the deposited data

How the results depend on the processing

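Alternatives were summed transcripts, limma-voom, no variance trend, median-centred, quantile-normalised or unshifted libraries, no filter or the filter value in every library, a pseudocount of 5, the adjusted p alone, 1 model for all 12 libraries, a mouse block and leaving out each library. The counts of members past the thresholds between genotypes stayed at 0 under all of them. In the tissue contrasts 37 to 43 members (WT) and 39 to 44 (KO) passed, except with the filter value required in every library, which left 8 and 10 members to test and 6 and 10 past the thresholds. With the replicate block on the mouse the tissue counts were 39 and 41 and that of the interaction 0, so pairing changed no count. In the lung, the count at an unadjusted p under 0.05 was 7 to 22 with 1 library left out (11 without lung WT replicate 1, 7 without lung KO replicate 2) and 1 in the model of all 12 libraries; the median difference was 0.39 to 0.59 with 1 library left out and 0.82 with unshifted libraries, where that of all genes was 0.27. Unshifted libraries leave out the added constants, which moves the members' median and that of all genes by about the same amount. What underlies the members' lean was not tested. The WT tissue difference of Dnai1 turned to −0.071 with quantile normalisation and reached 1.86 at the other end of the alternatives. The count and median in the lung were chosen after seeing the data, as was the choice to give heart results without heart KO replicate 1. In the heart, 23 members reached the filter in no WT library, so their heart values rest on few counts.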
